A study of Mus musculus with 2 samples.

Results

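Zfp genes encode zinc finger proteins, and the 146 expressed Zfp genes described here were selected on their read counts in Th17 cells with and without deletion of *Fak*. A row of the count tables was taken when its symbol was Zfp followed by digits only and its reads summed over both libraries reached 200. Of 23282 rows, 337 carried such a symbol, 146 met the minimum, 167 had reads below it and 24 had no read. The sum chose the members, so the number of expressed members is not a finding. It does not use the direction of a difference, although a gene with few reads in one library entered only if the other library held enough. Just inside the minimum were *Zfp182* with 104 control and 98 RV-Cre reads, *Zfp426* with 94 and 110, and *Zfp595* with 63 and 142. Just outside were *Zfp74* with 136 and 62, *Zfp429* with 104 and 93, and *Zfp599* with 127 and 59.

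The study asked how loss of focal adhesion kinase (FAK, encoded by *Ptk2*) alters Th17 cells, a CD4 T cell subset that produces IL-17. Naïve CD4 T cells from the spleens of *Fak* fl/fl mice received either a control retrovirus or a retrovirus carrying Cre recombinase (RV-Cre), which excises the floxed allele. Both cultures were stimulated for 3 days with antibodies to CD3ε (10 μg/ml, on the plate) and CD28 (5 μg/ml, in solution) in the presence of IL-6 (50 ng/ml), TGFβ1 (1 ng/ml), TNF-α (1 ng/ml), IL-1β (2 ng/ml) and antibodies blocking IFN-γ and IL-4, and transduced GFP+ cells were sorted. One library was made from each condition (n = 1), control and RV-Cre. Its sample title gives the control as *Fak* fl/fl cells and its genotype label as WT, of which the title was followed. Per the study's methods, naïve CD4 T cells came from female mice aged 6 to 8 weeks, and the number of mice behind each library is not given in the sources used here. Cre was present in 1 library only, so expression of Cre, loss of FAK and any difference between the cultures or library preparations cannot be told apart.

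A C2H2 zinc finger is a short fold in which a pair of cysteines and a pair of histidines hold a zinc ion, and tandem fingers let a protein read a stretch of DNA or RNA. In mammals many C2H2 proteins also carry a KRAB box, which recruits the corepressor KAP1 (*Trim28*) and through it the histone methyltransferase *Setdb1* and HP1 proteins, a route best known for silencing retroviruses and other transposable elements. KRAB genes lie in groups of tandem duplicates along the chromosomes. The Zfp name also covers unrelated zinc finger proteins such as tristetraprolin, the product of *Zfp36*, a CCCH protein that binds AU-rich elements and promotes the decay of cytokine transcripts in activated T cells.

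Classes were read from translated coding sequences rather than from counts. A KRAB box with C2H2 fingers was found in 59 members, C2H2 fingers without a KRAB box in 83, and no C2H2 match in 3 (*Zfp36*, *Zfp703* and *Zfp330*), while *Zfp783* had no complete coding sequence. The coding bases below, from GENCODE M21 on GRCm38, show one example of each fold for the genes at the extremes of the comparison and for the pair *Zfp943* and *Zfp944*. Each is exonic coding sequence written 5′ to 3′ on the gene's own strand. Capitals mark the codons of the zinc-binding cysteines and histidines or, in the KRAB box, of the conserved Glu-Glu-Trp.
*Zfp36*, first CCCH finger, chr7:28378158-28378217, minus strand: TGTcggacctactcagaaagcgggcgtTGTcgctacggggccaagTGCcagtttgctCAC
*Zfp367*, first C2H2 finger, chr13:64145534-64145596, minus strand: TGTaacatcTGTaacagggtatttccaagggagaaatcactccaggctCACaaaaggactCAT
*Zfp358*, first C2H2 finger, chr8:3495885-3495947, plus strand: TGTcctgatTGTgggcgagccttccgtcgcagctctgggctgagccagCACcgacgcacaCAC
*Zfp961*, C2H2 finger and linker, chr8:71968410-71968487, plus strand: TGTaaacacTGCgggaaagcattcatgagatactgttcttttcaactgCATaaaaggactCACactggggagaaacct
*Zfp943*, C2H2 finger and linker, chr17:21992478-21992555, plus strand: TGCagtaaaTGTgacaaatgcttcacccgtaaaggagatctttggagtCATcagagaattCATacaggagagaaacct
*Zfp944*, C2H2 finger and linker, chr17:22339635-22339712, minus strand: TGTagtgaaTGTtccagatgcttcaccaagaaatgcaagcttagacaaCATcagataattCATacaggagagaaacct
*Zfp961*, start of the KRAB box, chr8:71965800-71965844, plus strand: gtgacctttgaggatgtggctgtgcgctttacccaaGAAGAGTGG
In the C2H2 fingers the zinc-binding codons are equally spaced and the bases between them, which encode the recognition residues, vary. *Zfp943* and *Zfp944* shared 60 of 78 bases over the finger shown, and each shared 43 of 78 with *Zfp961*.

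The count tables summed to 13799264 reads for control and 12305010 for RV-Cre, scaled by TMM size factors of 1.06 and 0.941. *Ptk2*, the targeted gene, had 110 control and 31 RV-Cre reads (ratio 0.318, 0.206 to 0.477). Ratios here are of normalised read counts, RV-Cre over control, followed by their exact Clopper-Pearson 95% interval, which covers counting error only. Without a second library per condition no p-value can be given, and a gene was counted as changed at a 2-fold difference, that is, a difference of at least 1 on the scale of log2(normalised count + 1). The ribosomal RNA row *Rn45s* took 8.50% of control and 14.6% of RV-Cre reads. All 8 CD4 T cell markers were above the read minimum, summing to 1742 (control) and 2394 (RV-Cre) CPM, the read count scaled to the library total. Of the 5 CD8 and NK markers, 1 was at 0 in each library and the sums were 36.0 and 70.8 CPM. The 5 B cell markers summed to 3.04 and 8.78 CPM, with *Pax5* at 0 in both libraries, and the 6 myeloid markers to 8.84 and 16.8 CPM. The part of other cells and of ribosomal RNA in the results below was not tested.

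The members held 61093 control reads, 0.443% of that library, and 58339 RV-Cre reads, 0.474%. For 108 of the 146 the levels were within 1.5-fold of each other, while 20 were higher and 18 lower by at least that much. Of all 8517 genes with the read minimum, 1203 were higher and 1860 lower by at least 1.5-fold. The 12 that differed at least 2-fold were split evenly: 6 were higher and 6 lower in RV-Cre, 4.11% of the members each way. Among all 8517 genes with at least 200 summed reads, 5.00% were higher by that measure and 9.83% were lower. Without the read minimum, over the 12112 genes that reached a log2 value of 4 in either library, these shares were 14.2% and 12.3%. All genes with the minimum were more deeply counted, with a median of 1073 summed reads against 544.5 for the members. Weighted to the read depths of the members, in 5 ranges of summed reads, the shares among other genes were 6.52% higher and 11.8% lower. Under TMM both shares of the members were below these, differences that were not tested. Without weighting to depth, 10 of the 146 members and 535 of the 8517 genes were higher under library totals without *Rn45s*. Under quantile normalization 10 and 547 were. The higher share of the members was then slightly above that of all genes, and their lower share stayed below. Scaling to *Gapdh* (log2 ratio -0.42) in place of TMM raised the ratios by about that amount, so ratios slightly below 1 lay above it under that scaling, and 39 members changed side under at least 1 of 6 other scalings.

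The median log2 ratio of the members was 0.12, with quartiles of -0.20 and 0.42, against -0.08 for all genes with the read minimum. Ratios lay above 1 in 84 members and below 1 in 62. Their SD across genes was 0.567 on the log2 scale, and that of all genes with the minimum was 0.740. By counting error alone, the interval excluded 1 for 94 members, 58 above and 36 below, and included it for 52. The matching share over all genes was not computed, so these counts do not set the members apart. Only 3 intervals (*Zfp943*, *Zfp358* and *Zfp36*) lay wholly above 2 and 3 (*Zfp961*, *Zfp367* and *Zfp770*) wholly below the reciprocal of 2.

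**Figure D1:**
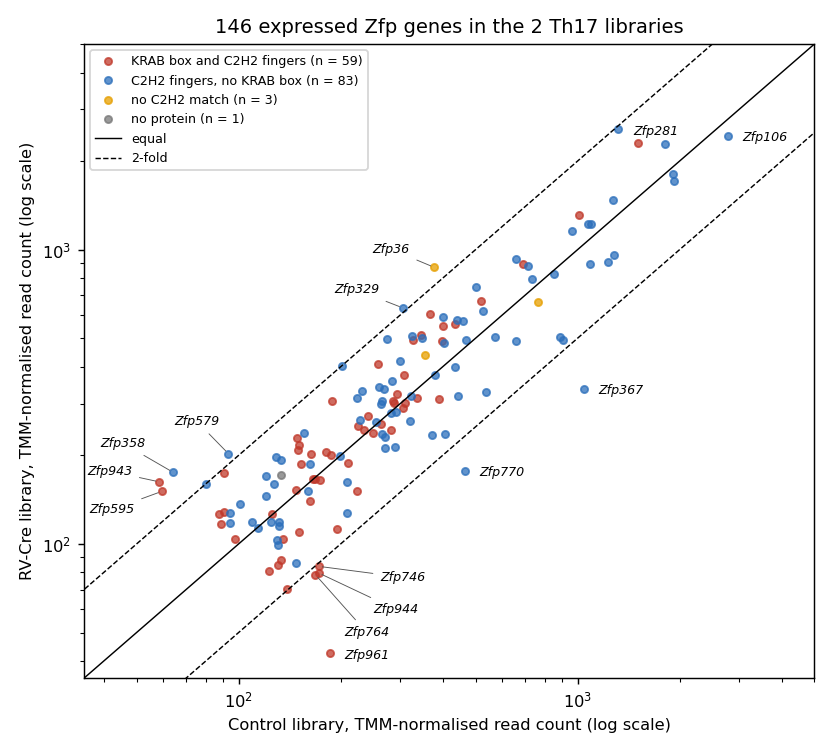
TMM-normalised read counts of the 146 members in the control library (x axis, log scale) and the RV-Cre library (y axis, log scale), 1 point per gene, coloured by protein class. The solid line marks equal counts and the dashed lines a 2-fold difference; the 6 higher and 6 lower members are named, and *Zfp580*, at a ratio of 2.00 before the pseudocount of 1 is added, lies on the upper line.

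The read depth of the members set how finely they could be compared. Fewer than 300 summed reads were counted for 35 members. In that lowest range 4 members were higher and 4 lower (11.4% each), against 10.1% and 15.9% of the 773 other genes of that depth. None of the 30 members with 300 to 499 reads differed 2-fold, while 7.56% of the 1243 other genes in that range were higher and 12.9% lower. From 2000 reads upward none of the 13 members did either, while 3.55% of the 2564 other genes were higher and 7.02% lower. In each of the 5 ranges the median of the members was above that of the other genes, from 0.01 against -0.06 in the lowest to 0.18 against -0.11 in the highest.

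**Figure D2:**
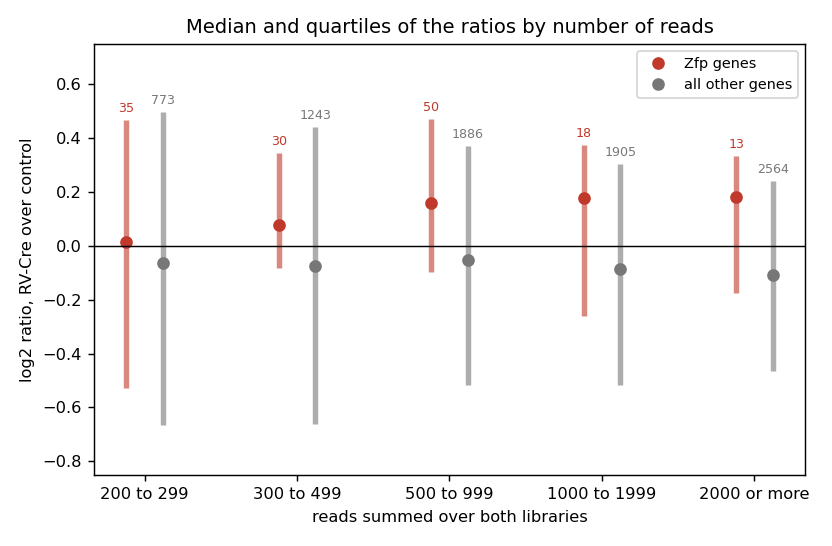
Median (points) and quartiles (bars) of the log2 ratio, RV-Cre over control, in 5 ranges of reads summed over both libraries (x axis), for the members and for all other genes, with the number of genes above each bar. The points of the members lie above those of the other genes in every range, and the bars overlap throughout.

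The 6 higher members were *Zfp943*, *Zfp358*, *Zfp595*, *Zfp36*, *Zfp579* and *Zfp329*. *Zfp36* had 401 control and 820 RV-Cre reads (ratio 2.31, 2.05 to 2.61). It was the best counted of the 6. *Zfp329*, with 12 C2H2 fingers, had 324 and 597 reads (2.08, 1.81 to 2.39). *Zfp579*, with 8 fingers, had 99 and 191 reads (2.18, 1.70 to 2.80). The largest ratios came from genes with few reads. *Zfp943*, a KRAB gene, had 62 and 153 reads (2.78, 2.06 to 3.80). *Zfp358*, with 9 fingers and no KRAB box, had 68 and 165 reads (2.74, 2.05 to 3.69). *Zfp595*, a KRAB gene with 18 fingers, had 63 and 142 reads (2.54, 1.88 to 3.48). Of these, *Zfp943* overlaps a pair of predicted genes, *Zfp595* overlaps *Zfp953* and *Zfp329* overlaps *Zscan18* in RefSeq. The strand setting of the counting is not given in the sources used here, so reads of overlapping genes cannot be told apart. This limit holds for all 57 members that overlap another annotated gene. In the lists described below these include, among others, *Zfp809* (with *Zfp599*), *Zfp445* (with *Zkscan7*), *Zfp91* (with *Lpxn*) and *Zfp687* (with *Pi4kb*).

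Just short of 2-fold on the scale used were *Zfp580* (85 and 151 reads, log2 ratio 0.99), *Zfp513* (215 and 380, 0.99), *Zfp281* (1402 and 2412, 0.96) and *Zfp661* (96 and 164, 0.94). *Zfp281*, which represses pluripotency genes in embryonic stem cells, had the largest ratio of the 13 members with at least 2000 summed reads. That ratio was 1.94 (1.82 to 2.07), and it passed 2-fold under quantile normalization, library totals without *Rn45s* and scaling to *Gapdh*. *Zfp260* (291 and 468 reads, 0.86) and *Zfp954* (390 and 568, 0.72) followed.

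The 6 lower members were *Zfp961*, *Zfp367*, *Zfp770*, *Zfp944*, *Zfp764* and *Zfp746*. *Zfp961*, a KRAB gene with 11 fingers, had 198 control and 40 RV-Cre reads (ratio 0.228, 0.158 to 0.322), the smallest ratio of any member. *Zfp367*, with 2 fingers and no KRAB box, had 1109 and 317 reads (0.323, 0.284 to 0.366). *Zfp770*, with 10 fingers, had 495 and 167 reads (0.381, 0.318 to 0.455). These 3 genes overlap no other annotated gene and stayed below equality under each of the 6 other scalings tried, although *Zfp770* was then no longer 2-fold lower under scaling to *Gapdh* (-0.97). The other 3 were closer to the threshold. *Zfp944* had 183 and 75 reads (0.462, 0.349 to 0.608). *Zfp764* had 179 and 74 reads (0.467, 0.351 to 0.615), and it overlaps 3 other annotated genes, the only lower member that overlaps any. *Zfp746*, whose product PARIS represses *Ppargc1a*, had 183 and 79 reads (0.487, 0.369 to 0.638). The intervals of all 3 span the 2-fold threshold. *Zfp746* matched the KRAB pattern at 11 of 25 scored letters, against 21 for *Zfp961*, 22 for *Zfp944* and 21 for *Zfp764*.

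Just short of 2-fold lower were *Zfp934* (148 and 66 reads, -0.98), *Zfp598* (962 and 464, -0.88), *Zfp207* (941 and 477, -0.80), *Zfp747* (207 and 106, -0.79), *Zfp422* (431 and 222, -0.78) and *Zfp64* (157 and 81, -0.77). *Zfp598* and *Zfp207* were well counted, and their intervals, 0.486 to 0.609 and 0.511 to 0.639, exclude equal levels.

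**Figure D3:**
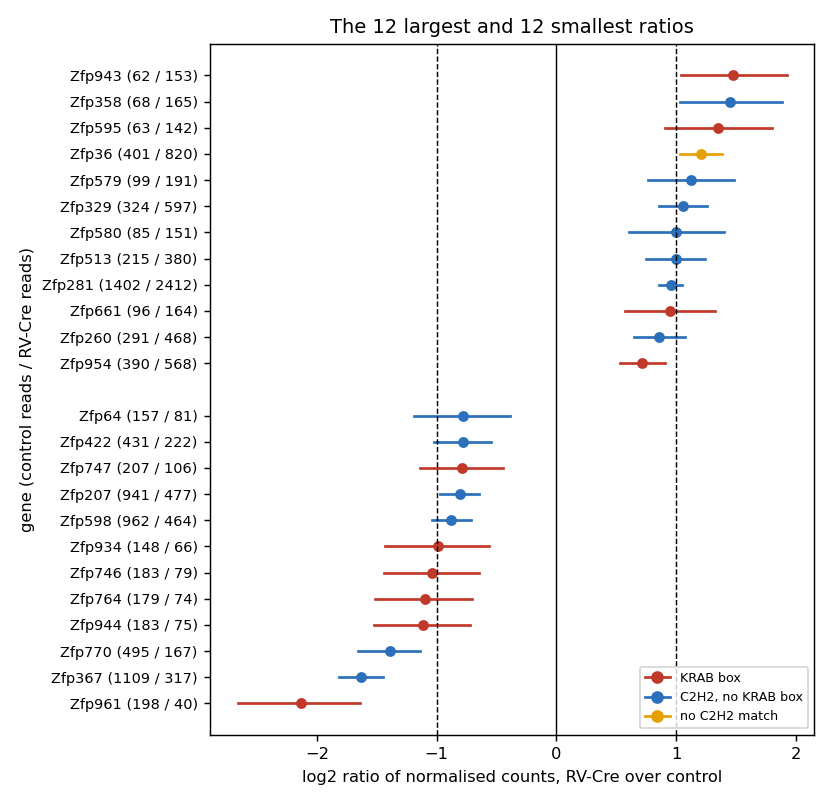
Log2 ratio of normalised counts, RV-Cre over control (x axis), of the 12 members with the largest and the 12 with the smallest ratios, with the exact 95% counting interval as a line; raw reads of each library stand beside the gene. Intervals are widest for genes with under 200 reads in both libraries, and 3 clear the dashed 2-fold line on each side.

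Members with a KRAB box and those without differed little. Of the 59 KRAB members 2 were higher and 4 lower (3.39% and 6.78%), and their median log2 ratio was 0.10. Among the 83 with C2H2 fingers and no KRAB box 3 were higher and 2 lower (3.61% and 2.41%), with a median of 0.12. The shares over all genes with the read minimum were 5.00% higher and 9.83% lower. The 3 without a C2H2 match were *Zfp36*, *Zfp703* (378 and 413 reads, 0.30), which encodes a transcriptional corepressor, and *Zfp330* (810 and 626, -0.20), which encodes a nucleolar protein. The number of fingers told little more. The median was 0.13 for the 38 members with 1 to 5 fingers, 0.14 for the 46 with 6 to 10 and 0.08 for the 58 with 11 or more, and each range held both higher and lower genes except the lowest, with 0 higher and 2 lower. KRAB genes under other symbols that met the minimum numbered 13, with 0 changed and a median of 0.38.

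A list of KRAB members with a known genomic target had 8 genes, of which 5 met the minimum. Of these 1, *Zfp961*, was at least 2-fold lower (20%, where 9.83% of all genes with the read minimum were lower). *Zfp809*, which silences murine leukaemia proviruses through their primer binding site, had 424 and 460 reads (ratio 1.22, 1.07 to 1.40). *Zfp445*, which protects imprinted methylation, had 1074 and 1237 reads (1.30, 1.20 to 1.41). *Zfp932*, which restrains endogenous retroviruses, had 159 and 197 reads (1.40, 1.13 to 1.73), but 60.3% of the 50-base words in the last 500 bases of its transcript also occur in its relative *Gm15446*, so its count is uncertain. *Zfp568*, a repressor of a placental *Igf2* promoter, had 173 and 132 reads (0.861, 0.681 to 1.09), an interval that includes equal levels. All of these ratios except that of *Zfp961* stayed within 1.5-fold. *Zfp57*, the best known guardian of imprints, was below the minimum with 5 and 24 reads, as were *Zfp708* with 19 and 5 and *Zfp819* with none.

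The partners through which KRAB proteins act were read from a list of 23 genes of the KAP1 pathway in the tables. At the 2-fold threshold 0 were higher and 4 lower (17.4% of the list, where 9.83% of all genes with the read minimum were lower and 5.00% higher). *Trim28* itself, the KAP1 corepressor, had 5797 and 4544 reads (-0.18), and *Setdb1* had 1931 and 1397 (-0.29). The 4 lower genes were *Uhrf1* (2688 and 767 reads, -1.63), *Smarcad1* (438 and 153, -1.34), *Cbx3* (2041 and 761, -1.25) and *Dnmt1* (3826 and 1476, -1.20). *Cbx3* encodes an HP1 protein, *Smarcad1* a chromatin remodeller, and *Uhrf1* and *Dnmt1* copy DNA methylation behind the replication fork. The largest ratios were those of *Fam208a* (1443 and 1626, 0.35), a subunit of the HUSH silencing complex, *Ehmt2* (588 and 652, 0.32), a histone H3 lysine methyltransferase, and *Atf7ip* (246 and 270, 0.31), the partner of *Setdb1*. The median log2 ratio of the list was -0.29, with 15 of 23 below 0, but under scaling to *Gapdh* the median was 0.13 and 1 gene was lower. The median of the 59 KRAB members was above 0 under both scalings.

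Members that act on RNA or ribosomes formed a list of 11, all above the minimum, of which 1 was higher (*Zfp36*, 9.09% of the list) and 0 lower. The shares over all genes with the read minimum were 5.00% higher and 9.83% lower. *Zfp598*, the ligase that marks collided ribosomes, and *Zfp207*, a Bub3-binding protein of the mitotic spindle and of splicing, lay lowest in this list. *Zfp326* (698 and 877 reads, 0.50), which couples transcript elongation to splicing, and *Zfp346* (285 and 317, 0.33), which binds double-stranded RNA, followed *Zfp36* at the upper end. The ribosome assembly factors lay on opposite sides of equality, with *Zfp622* at 1141 and 1148 reads (0.18) and *Zfp593* at 1155 and 843 (-0.28, or 0.14 under scaling to *Gapdh*). *Zfp106*, an RNA-binding protein of motor neurons, had the most reads of any member, 2952 and 2292 (-0.19, or 0.23 under scaling to *Gapdh*). *Zfp706* (2051 and 1608, -0.18, or 0.24 under that scaling), *Zfp638* (1166 and 1147, 0.15) and *Zfp830* (497 and 463, 0.07) completed the list. For *Zfp706*, 38.9% of the words at its 3′ end also occur in other genes.

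Relatives of *Zfp36* were compared because CCCH proteins of this family share its RNA targets in part. In the same libraries *Zfp36* was higher, *Zfp36l1* had 2699 and 3142 reads (ratio 1.31, 1.25 to 1.38) and *Zfp36l2* had 1260 and 505 (0.452, 0.407 to 0.502). The 3 paralogs thus spanned from over 2-fold higher to over 2-fold lower, with intervals that do not overlap one another. Over the 19 listed CCCH relatives with the minimum the median log2 ratio was 0.06. Of all genes with the minimum 5.00% were higher and 9.83% lower, and of the 19 relatives 3 were higher and 3 lower (15.8% each). The higher genes were *Zc3hav1* (766 and 1521 reads, 1.16), which encodes the antiviral protein ZAP, *Zc3h6* (69 and 137, 1.15) and *Zc3h12d* (1480 and 2820, 1.10), a relative of Regnase-1. The lower genes were *Zfp36l2* (-1.14), *Zc3h7b* (471 and 199, -1.07) and *Zc3h8* (334 and 144, -1.03); under scaling to *Gapdh* 4 were higher and 0 lower. The roquins *Rc3h1* (782 and 700, 0.01) and *Rc3h2* (704 and 644, 0.05) and Regnase-1 itself, *Zc3h12a* (382 and 316, -0.10), were within 1.5-fold.

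Members with a described part in lymphocytes formed a list with 9 genes in the tables, all above the minimum. At the 2-fold threshold 1 was higher (*Zfp36*, 11.1% of the list) and 0 lower, where 5.00% of all genes with the read minimum were higher and 9.83% lower. Log2 ratios of 7 of the 9 lay above 0. *Zfp281* had the next largest ratio (log2 ratio 0.96) and made the count 2 under quantile normalization and under library totals without *Rn45s*, and with *Zfp384* it made 3 under scaling to *Gapdh*. *Zfp335*, needed for T cell maturation, had 301 and 338 reads (0.34). *Zfp318*, which controls IgD expression in B cells, had 778 and 748 (0.12). *Zfp384* (137 and 186, 0.61), *Zfp292* (1929 and 2154, 0.33) and *Zfp148* (1026 and 1093, 0.27), which binds GC-rich promoters, were also above 0. *Zfp131* (1360 and 906, -0.41, or 0.01 under scaling to *Gapdh*) and *Zfp91* (1309 and 858, -0.43) were below 0. *Zfp91* encodes an E3 ubiquitin ligase of the noncanonical NF-κB pathway and, with *Zfp598* and the SUMO ligase *Zfp451* (534 and 702 reads, 0.57), made up the ligase list, in which 0 of 3 changed 2-fold.

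Chromatin and promoter factors numbered 11 above the minimum of 14 listed, with 0 higher and 1 lower (*Zfp746*, 9.09% of the 11). The shares over all genes with the read minimum were 5.00% higher and 9.83% lower. *Zfp281* became the 1 higher gene and *Zfp746* passed out of the count under quantile normalization and library totals without *Rn45s*. Under scaling to *Gapdh* 2 of the list were higher (*Zfp281* at 1.37 and *Zfp263* at 1.06) and 0 lower. *Zfp143*, which binds promoters at the anchors of chromatin loops, had 271 and 245 reads (ratio 1.02, 0.855 to 1.22). *Zfp410*, whose known target is the remodeller gene *Chd4*, had 463 and 375 reads (0.914, 0.795 to 1.05), and *Chd4* had 6280 and 6513 (1.17, 1.13 to 1.21). Both factors were thus within counting error of equality. *Zfp217* (368 and 471, 0.53), *Zfp644* (758 and 827, 0.30), a partner of the methyltransferases *Ehmt1* and *Ehmt2*, and *Zfp263* (346 and 478, 0.64) lay above 0. *Zfp592* (699 and 460, -0.43) and *Zfp687* (222 and 153, -0.36, or 0.06 under scaling to *Gapdh*), which belong to the same ZMYND8-containing complex, lay below 0. *Zfp219* (2030 and 1705, -0.08) was close to 0. *Zfp516* (24 and 29 reads), *Zfp462* (0 and 4) and *Zfp532* (0 in both) were below the minimum.

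**Figure D4:**
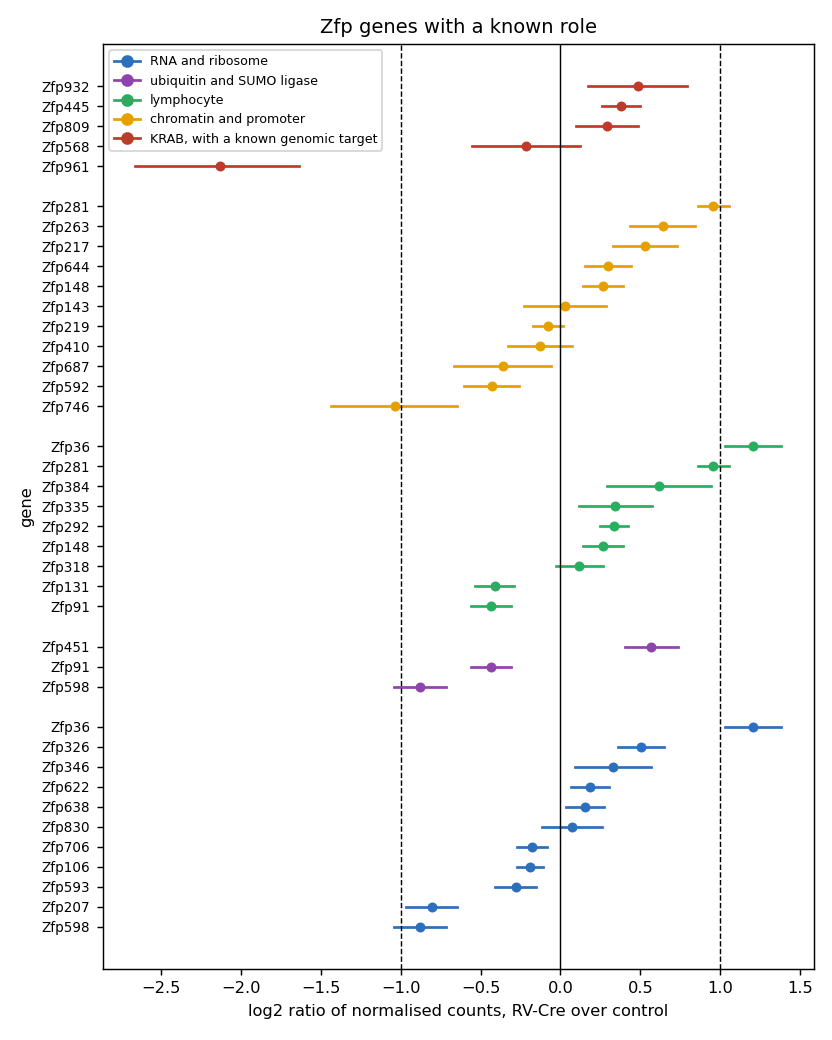
Log2 ratio of normalised counts, RV-Cre over control (x axis), with exact 95% counting intervals, for members of the 5 role lists that met the read minimum; genes on 2 lists are drawn in both. Most points lie between the dashed 2-fold lines, with *Zfp36* to the right of them and *Zfp961* and *Zfp746* to the left.

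Along the chromosomes, 61 members lay in 22 groups in which the gap between one member and the next was at most 250 kb, and 34 of the 146 members were on chromosome 7. Of the 39 adjacent pairs within groups, 27 had ratios on the same side of 1 (69.2%), against 50.8% of all pairs of members. The median difference between neighbours was 0.48 on the log2 scale, and that of all pairs was 0.50, so the sizes of neighbouring ratios were about as far apart as those of any pair. Pairs share members and were not tested. *Zfp783* with *Zfp956* and *Zfp692* with *Zfp672* also overlap each other, so their reads cannot be told apart.

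The groups with 3 or more members showed both patterns. On chromosome 7 at 4915181 to 5053723 (GRCm38), none of 5 C2H2 genes without a KRAB box lay below 0: *Zfp628* (0.19), *Zfp579* (1.11), *Zfp524* (0.20), *Zfp865* (0.49) and *Zfp580* (0.99). The intervals of the ratios of *Zfp628* (0.963 to 1.35) and *Zfp524* (0.925 to 1.42) include equal levels. Further along, at 127233061 to 127406835, *Zfp553* (-0.33), *Zfp771* (-0.18), *Zfp747* (-0.79) and *Zfp764* (-1.09) were all below 0, although *Zfp553* and *Zfp771* moved above 0 under scaling to *Gapdh*. The interval of the ratio of *Zfp553* (0.605 to 1.04) includes equal levels. *Zfp747* and *Zfp764* share part of their 3′ ends, 31.3% and 30.2% of their words occurring in other genes including each other or a neighbour, so their counts are not independent. In the group of 6 on chromosome 6, *Zfp282* (0.37), *Zfp212* (0.37), *Zfp783* (0.36) and *Zfp956* (0.52) were above 0, and *Zfp777* (-0.33, or 0.09 under scaling to *Gapdh*) and *Zfp746* (-1.03) at its far end were below. *Zfp783* and *Zfp956* overlap each other, so their counts may not be independent.

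Neighbours could also part. On chromosome 8 *Zfp961* (71951048 to 71970333, log2 ratio -2.11) lies beside *Zfp617*, which had 327 and 354 reads (0.29). Both have a KRAB box, and the intervals of their ratios, 0.158 to 0.322 and 1.05 to 1.42, are far apart. On chromosome 13 the 5 KRAB genes from 67312985 to 67729178 ran from *Zfp595* (1.33) through *Zfp87* (158 and 215 reads, 0.62), *Zfp748* (133 and 119, 0.01) and *Zfp738* (93 and 119, 0.53) to *Zfp65* (144 and 98, -0.38). Under scaling to *Gapdh* *Zfp65* was at 0.04 and all 5 lay above 0.

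**Figure D5:**
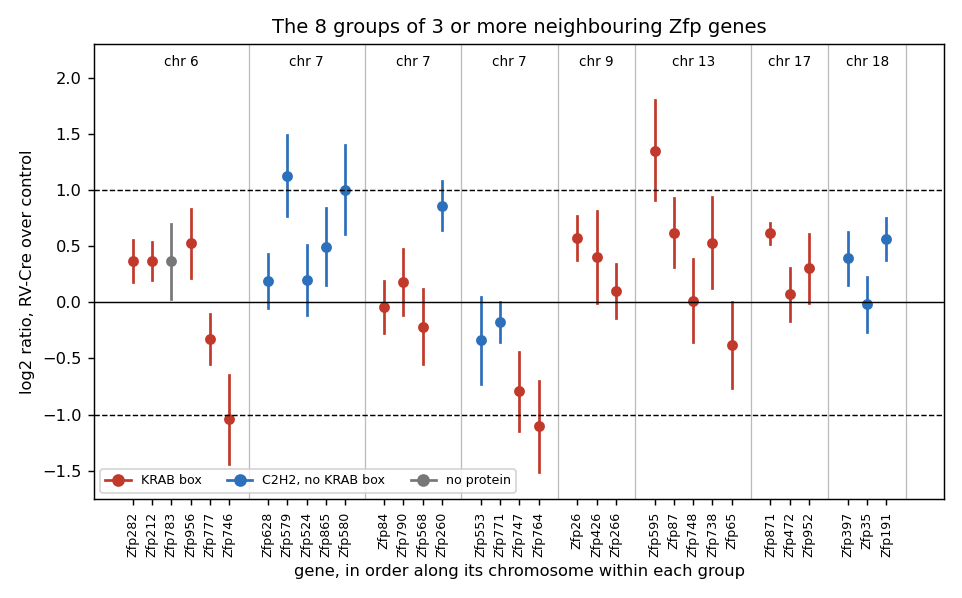
Log2 ratio of normalised counts, RV-Cre over control (y axis), with exact 95% counting intervals, for the 8 groups of 3 or more neighbouring members, in order along each chromosome. The points of the 5 genes of one chromosome 7 group lie above 0, although the intervals of *Zfp628* and *Zfp524* cross it. The points of the 4 of another lie below 0 (2 of them above 0 under scaling to *Gapdh*), and the interval of *Zfp553* crosses 0. The chromosome 6 and 13 groups hold both (under scaling to *Gapdh* *Zfp777* on chromosome 6 and *Zfp65* on chromosome 13 lie above 0).

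Alike proteins did not always have alike ratios. The most alike pair, *Zfp943* and *Zfp944*, both KRAB genes on chromosome 17, shared 66.5% of aligned residues, and had the largest ratio of all members (2.78) and one of the smallest (0.462). Neither shares a 50-base word with another gene in the last 500 transcript bases, the end of the transcript from which a 3′ library is made. *Zfp747* and *Zfp764*, with 63.7% identity, were both below 1. *Zfp932* shared 58.5% of residues with *Zfp950* (273 and 386 reads, 0.67) and 58.0% with *Zfp937* (96 and 121, 0.50), and all 3 ratios lay above 1. Over all members, 126 of 145 with a transcript end shared no such word with another gene, and 19 shared some.

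Promoter sequence was searched for the E2F words TTTCCCGC, TTTGGCGC and TTTCGCGC on either strand in the 250 bases before each RefSeq start. E2F factors regulate genes of the cell cycle, and the search was chosen with the ratios known. One of these words was in 1.53% of 32851 promoters and in 8 of 149 promoters of members (5.37%), which belong to 7 of the 121 members with a promoter in the table. Of the 114 members with a promoter but without the word, 6 were higher and 5 lower. The shares over all genes with the read minimum were 5.00% higher and 9.83% lower. *Zfp367* was the only changed gene among the 7 with the word. The other 6 were *Zfp213* (-0.40), *Zfp653* (-0.003), *Zfp444* (0.25), *Zfp644* (0.30), *Zfp512* (0.52) and *Zfp871* (1600 and 2173 reads, 0.62), so the word did not mark a common direction. A promoter of *Zfp367*, chr13:64153200-64153449, minus strand (GRCm38.p6, RefSeq), is shown because *Zfp367* is the best counted lower gene. Another RefSeq promoter of this gene, chr13:64152374-64152623, also holds an E2F word, 90 bases before its start, and is not shown. Capitals mark the word, here on the opposite strand and 19 bases before the start.
*Zfp367* promoter: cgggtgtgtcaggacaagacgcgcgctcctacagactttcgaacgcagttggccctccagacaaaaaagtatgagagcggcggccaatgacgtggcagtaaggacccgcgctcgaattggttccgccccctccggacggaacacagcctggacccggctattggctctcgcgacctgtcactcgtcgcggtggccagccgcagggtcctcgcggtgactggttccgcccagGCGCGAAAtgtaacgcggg
A match is a description of these letters and not a binding site.

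The members with most reads after *Zfp106* were *Zfp292*, *Zfp281*, *Zfp871*, *Zfp219*, *Zfp706*, *Zfp800* and *Zfp638*. *Zfp800* had 1353 and 1390 reads (0.21). Of these 8, 3 lay below 0 (*Zfp106*, *Zfp219* and *Zfp706*, each above 0 under scaling to *Gapdh*), and the ratios of *Zfp281* and *Zfp871* were over 1.5. In the control library the members ran from 4.49 to 214 CPM, and in RV-Cre from 3.25 to 196 CPM. Read counts are compared within a gene and not between genes.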

How the data were processed

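For each library the authors used 500 ng of total RNA and a Lexogen QuantSeq 3′ kit. The deposited values are raw counts, whole reads per gene symbol with no normalization. The submitters' processing notes name bcl2fastq 2.20.0.422, Bowtie2, bedtools and the build mm10, and the annotation, filters and strand setting are not given in the sources used here. Counts were scaled with TMM (edgeR 4.0.16, R 4.3.3) and compared as log2(normalised count + 1). With 1 library per condition no test was run. Ratio intervals are exact Clopper-Pearson 95% intervals (scipy 1.17.1). These intervals cover counting error only. Reads carry no molecular identifiers, so copies of the same molecule are counted as separate reads and the intervals may be too narrow. The procedure was tested on simulated counts that held counting error only, so the test did not cover the spread between cultures.

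Genes were matched to RefSeq GRCm38.p6 by symbol or synonym (146 of 146). Proteins were translated by the standard genetic code from the longest complete coding sequence of each gene in GENCODE M21 instead of RefSeq proteins. Pairs of proteins were aligned with Biopython 1.88. C2H2 and CCCH fingers were found by spacing patterns, and a KRAB box by at least 10 of 25 conserved letters, or 16 as the stricter pattern. Word sharing used 50-base words in the last 500 transcript bases.

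The members and lists were chosen with earlier results of these data known. Genes named are *Ptk2*, the role lists, the 12 largest and 12 smallest ratios, the 8 members with most reads, the 3 nearest the minimum on each side, the 2 most extreme genes each way of each class and group described, the 4 most alike protein pairs, and the 3 extremes each way of the KAP1 and CCCH lists. Group members, E2F matches, *Zc3h12a* and both roquins outside this rule were named after their values were seen. Alternatives were other scalings (DESeq2 1.42.0 among them), pseudocounts, minimums, folds, a KRAB pattern and removal of overlapping members, and the removal of members with shared end words was chosen after seeing the data.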

Additional observations from a re-analysis of the deposited data

How the results depend on the processing

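No paired analysis was possible because there was 1 library per condition. Of 66 values recomputed under alternatives, 49 stayed within 1.5 times the count or within the 95% order-statistic interval of the median, and 17 moved. Of the medians 0 changed sign, a change that a count cannot show. The order-statistic interval is taken over genes, treats them as independent and served only as a yardstick. The count of higher members, 6, became 10 under library totals without *Rn45s*, 10 under quantile normalization, 20 under scaling to *Gapdh*, 40 with the log2 minimum alone (277 members), 1 with a summed read minimum of 1000 (31 members), 3 without members that overlap another gene, 20 at 1.5-fold and 0 at 3-fold. The count of lower members, 6, became 2 under scaling to *Gapdh*, 21 with the log2 minimum alone, 1 with the minimum of 1000, 18 at 1.5-fold and 2 at 3-fold. Of all 8517 genes with 200 reads, 535 were higher under library totals without *Rn45s* and 547 under quantile normalization. Under scaling to *Gapdh* 1206 were higher and 377 lower. At 1.5-fold 1203 were higher and 1860 lower, and at 3-fold 100 and 287. With the log2 minimum alone, 1720 of 12112 genes were higher and 1491 lower. Scaling to *Gapdh*, whose own log2 ratio was -0.42, moved the median of all genes with 200 reads from -0.08 to 0.34, that of the members to 0.54, of KRAB members to 0.52 and of members without a KRAB box to 0.54. The median of the KRAB members was 0.38 with the minimum of 1000. The median of the members stood above that of all genes by 0.20 under TMM and under quantile normalization. The remaining scalings shift the ratios of all genes by nearly the same amount, so they could not change this difference. Under each of the 6 other scalings the 6 higher members stayed at least 2-fold higher. Of the 6 lower ones 5 or 6 stayed lower, except under scaling to *Gapdh*, where 2 did (*Zfp961* and *Zfp367*). The sign of 39 members changed under at least 1 scaling, or of 17 leaving out *Gapdh*.

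With 1 library per condition, the spread between cultures is unknown, and no interval here covers it.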

Other observations

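Zinc finger genes under other names were read in the same way. Of 160 C2H2 genes of other symbols with at least 200 summed reads, 8 were higher and 11 lower in RV-Cre at the 2-fold threshold (5% and 6.9%). Their median log2 ratio was -0.03. The shares over all genes with that minimum were 5.00% higher and 9.83% lower. The 21 Zbtb genes, whose products join a BTB domain to C2H2 fingers, held 0 higher and 1 lower, with a median of 0.04. The 9 Zscan and Zkscan genes held none changed and had a median of 0.24. The 14 Klf and Sp genes, which bind GC-rich promoters, were the most spread, with 4 higher and 1 lower (28.6% and 7.14%). Their SD across genes was 1.34, against 0.567 for the 146 Zfp genes. The 13 genes whose Zfp symbol ends in a letter, among them *Zfp36l1* and *Zfp36l2*, held 0 higher and 1 lower, and their median was 0.04. None of these differences between families was tested.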
